A study of Mus musculus with 5 samples.

Results

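The genes described here encode Janus kinases (JAKs), STAT transcription factors and the SOCS and CIS proteins that restrain them, measured in mouse peritoneal macrophages after poly IC, with and without ethanol. Members were all probe sets whose platform gene symbol, or its current name by Entrez ID, was one of 10 listed genes. The rule found 13 probe sets of the 12488 on the array, for 9 genes: Jak1, Jak2, Stat3, Stat5a, Stat6, Socs1, Socs2, Socs3 and Cish. Stat2 was not analysed here. Of the 13 probe sets, 12 passed the filter on low signal, and each of the 9 genes was tested through its brightest probe set.

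RNA was hybridised to 5 Affymetrix MG-U74Av2 arrays, 1 per sample. The naive group was 1 array from untreated animals, with no sex, age or pooling given. The poly IC group was 2 pools of 12-week-old female mice of a C57Bl/6 by C3H F1 cross given poly IC, a man-made RNA duplex that is sensed like the genome of a virus. The poly IC plus ethanol group was 2 pools of the same cross, sex and age given poly IC and oral ethanol at 6 g per kg. The poly IC dose was 0.1 mg per mouse where the labels state it, which they do not for poly IC pool 1. All mice of the 4 treated pools received poly IC, and no array came from ethanol alone, so an effect of ethanol on the response cannot be told apart from one that ethanol has by itself. Any sex or age gap separating the naive array from the pools is likewise bound up with poly IC and cannot be told apart. The series asks how acute ethanol alters gene induction by poly IC.

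JAKs are tyrosine kinases bound to the inner tails of cytokine receptors. When a cytokine such as an interferon, interleukin-6 or interleukin-4 joins its receptor chains, the JAKs phosphorylate STAT proteins, which pair, enter the nucleus and activate genes. SOCS proteins and CIS are made from genes that STATs themselves switch on, and they feed back by blocking JAKs or covering the STAT docking sites on receptors. In macrophages this loop sets how strongly and how long the cells respond to interferons and to interleukin-6, interleukin-10 and interleukin-4.

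Promoter sequences of Socs1, Socs3 and Jak2 are shown because the first pair had the largest rises with poly IC and Jak2 the largest fall with ethanol. Each line gives the 250 bases before the RefSeq start site (GRCm38.p6), 5′ to 3′ on the gene's strand. Socs1 lies on the minus strand at chr16:10785537-10785786, Socs3 on the minus strand at chr11:117969367-117969616 and Jak2 on the plus strand at chr19:29251553-29251802. Capitals mark matches to the ISRE motif, an element found in many interferon-induced genes, searched on both strands as GAAA, any 2 bases and GAAA (TTTC, any 2 bases and TTTC on the other strand), or to the GAS motif of STAT dimers, searched as TTCNNNGAA, which reads the same on both strands.
Socs1: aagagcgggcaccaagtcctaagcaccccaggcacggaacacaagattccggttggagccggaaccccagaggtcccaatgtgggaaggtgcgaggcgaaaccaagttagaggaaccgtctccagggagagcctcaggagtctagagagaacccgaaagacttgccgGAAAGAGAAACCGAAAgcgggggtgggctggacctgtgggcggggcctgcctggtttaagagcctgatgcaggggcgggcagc
Socs3: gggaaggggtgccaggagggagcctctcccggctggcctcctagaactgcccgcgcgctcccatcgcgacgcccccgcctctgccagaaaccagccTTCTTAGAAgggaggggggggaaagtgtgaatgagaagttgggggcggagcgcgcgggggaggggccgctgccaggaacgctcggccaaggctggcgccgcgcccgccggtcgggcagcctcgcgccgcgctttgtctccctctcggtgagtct
Jak2: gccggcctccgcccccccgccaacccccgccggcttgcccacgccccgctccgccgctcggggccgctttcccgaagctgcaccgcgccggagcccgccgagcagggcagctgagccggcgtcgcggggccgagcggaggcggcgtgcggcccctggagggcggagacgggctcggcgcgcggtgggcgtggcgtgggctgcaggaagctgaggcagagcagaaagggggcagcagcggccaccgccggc
The Socs1 window held 2 overlapping ISRE matches, GAAAGAGAAA from 83 to 74 bases and GAAACCGAAA from 77 to 68 bases before the start, which form the single capital run. The Socs3 window held 1 GAS match, TTCTTAGAA, from 154 to 146 bases before the start. Jak2 had neither motif in this window. Windows were found for 8 of the 9 genes, and those of Jak1, Stat3, Stat5a, Stat6 and Cish had no match to either motif. Among 32851 promoter windows of the same length in the RefSeq table, 2.98% held an ISRE match, 0.18% held 2 or more, and 7.02% held a GAS match. A match describes the letters and is not evidence of binding.

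Signals below are the deposited array signals, on a linear scale with 1 value for each probe set on each array, which allow a gene to be compared between arrays but not with another gene. Means are given ± SD with n = 2 pools, and the naive group has n = 1. Log2 differences were taken after adding 250 to every signal, so those of dim genes are understated. A gene is called when its adjusted p from limma, fitted to 5581 genes, is under 0.05. The labels call each treated sample a pool and do not give the number of mice, so p-values measure the spread between pools. The estimate of that spread was mostly borrowed from other genes of like brightness, with 7.63 prior and 2 residual degrees of freedom. Comparisons with naive rest on 1 naive array that was assumed to vary like the others. The signal of 18S ribosomal RNA was 66548 on the array of poly IC pool 2 against 5113 to 19415 on the other arrays. Of 14 resident macrophage markers, none was below the brightest unspiked control on all 5 arrays, and with poly IC 2 were called higher and 3 lower. Lyz2 lay between 73144 and 81816, Cd68 between 25163 and 27474 and Adgre1, the F4/80 antigen, between 19411 and 30801. Others moved: Gata6, the factor of resident peritoneal macrophages, was 7218 on the naive array and 1169 to 2188 on the treated arrays, Tgfb2 was 7853 and then 1505 to 2128, and Cd14 was 47180 and then 120787 to 147435. B cell transcripts were also bright on every array, with Ighm between 77055 and 117527. The summed signal of 14 B cell markers was 418241 on the naive array, 190219 to 206021 with poly IC and 264271 to 277409 with poly IC plus ethanol. For 15 neutrophil markers the sum was 24058, then 101982 to 139096, then 39667 to 46750. In such bulk RNA, fewer cells of a type and less RNA per cell cannot be told apart.

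Poly IC against naive asks which parts of the JAK-STAT circuit had higher or lower RNA signals during the response to double-stranded RNA. All 9 member genes were called, 8 of them higher and Stat6 lower. The members were chosen with earlier results of these data known, so this count is a description. The feedback inhibitors Socs1 and Socs3 rose most, by about 20-fold and 10-fold in mean signal, and Jak2 rose about 5-fold. Over all 5581 genes, 11.7% were called higher and 20.1% lower, 31.8% in either direction. With arrays centred on their median the calls split into 843 higher and 721 lower, against 654 and 1121 as deposited, and the median of all genes moved by 0.20 log2 units. The naive signal lay below both poly IC arrays for the same 8 members, as it did for 35.0% of all genes. The median difference was 1.32 for the 9 members and -0.16 for all genes.

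**Figure D1:**
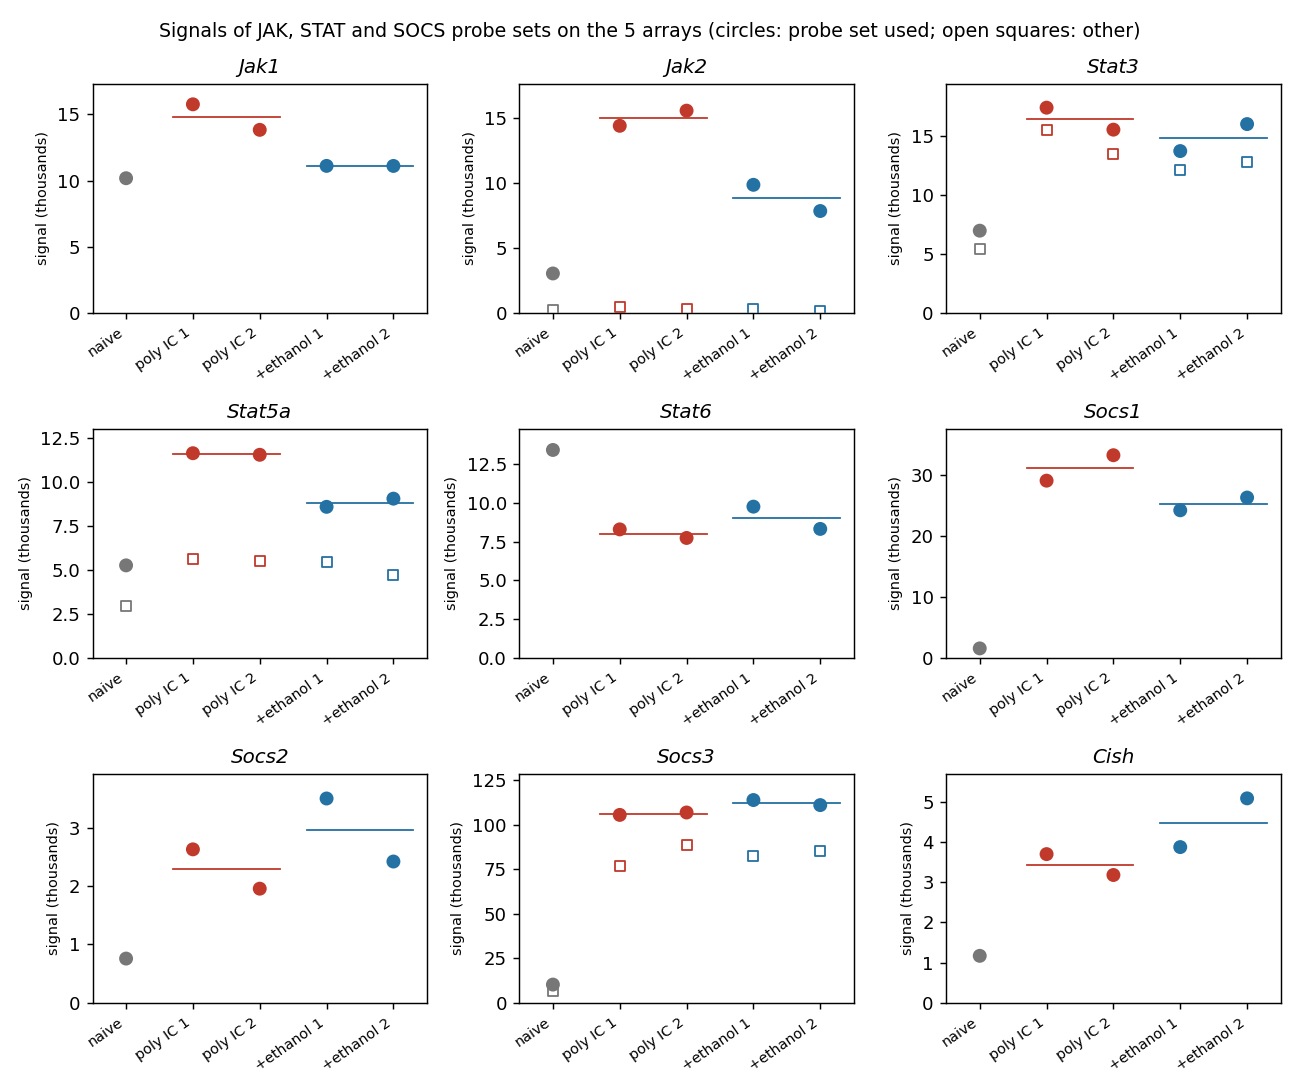
Signals (linear axis from 0) of the 9 genes on the naive array (grey), the 2 poly IC arrays (red) and the 2 poly IC plus ethanol arrays (blue). Circles are the probe set used for the gene, open squares its other probe set, and bars the mean of 2 arrays. Socs1 and Socs3 stand far above naive in both treated groups, Stat6 is lower than naive in both, and Jak2 falls between its naive and poly IC levels with ethanol.

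Among the feedback inhibitors, Socs1, which binds JAKs directly and is a main brake on interferon signalling, gave 1565 in the naive sample, and the pools given poly IC gave 29023 and 33188. Both poly IC arrays were far above naive, a 19.9-fold difference of means (log2 difference 4.11, SE 0.16, limma adjusted p = 6.03e-08). Its difference lay at percentile 99.4 of the 5581 genes. Socs3, which attaches to the gp130 receptor chain and curbs interleukin-6 signalling through STAT3, read 10282 on the naive array and 105563 and 106913 with poly IC. Its pools differed by little and the difference from naive was 3.34 (SE 0.11, adjusted p = 1.58e-08). A second Socs3 probe set gave 6737 on the naive array and 76735 and 88768 with poly IC. Its name ends in _f_at, an array-design suffix that marks sets outside the standard probe selection. On that probe set the log2 difference was 3.57 (SE 0.13) in a fit of all probe sets, so both put the rise at over 10-fold.

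Cish encodes CIS, a STAT5-induced inhibitor that occupies STAT5 docking sites on receptors. Its signal was 1170 on the naive array and 3700 and 3181 with poly IC, a rise of 1.37 (SE 0.23, adjusted p = 0.0016). Socs2, known as a brake on growth hormone signalling, had 758 on the naive array and 2627 and 1955 with poly IC. It rose by 1.32 (SE 0.28, adjusted p = 0.00548), with the widest interval of the 9 genes, from 0.70 to 1.94. For Cish and Socs2 alike both poly IC pools exceeded the naive array, and the rises were about 3-fold in mean signal.

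Of the kinases, Jak2, which serves the receptors for interferon-gamma, for the GM-CSF family and for growth hormone, gave 3040 in the naive sample against 14387 and 15550 after poly IC. The rise was 2.21 (SE 0.19, adjusted p = 2.04e-05) and the interval ran from 1.78 to 2.64. The other Jak2 probe set was dim, with 222 on the naive array, and with 485 and 313 with poly IC against 343 and 129 with poly IC plus ethanol. It lay below the brightest unspiked control probe set on 3 of the 5 arrays and did not pass the filter, so it gives no separate reading. Jak1, which pairs with most cytokine receptors including both interferon receptors, moved less, from 10183 to 15765 and 13837 (0.53, SE 0.16, adjusted p = 0.0342). That call did not hold after leaving out either of the poly IC pools, at 0.43 (adjusted p = 0.193) without replicate 1 and 0.62 (adjusted p = 0.0729) without replicate 2, nor with eBayes without the intensity trend (adjusted p = 0.106).

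The STAT genes did not move together. Stat3, which carries signals of interleukin-6 and interleukin-10, rose from 6978 to 17403 and 15540 (1.21, SE 0.17, adjusted p = 0.000561). Its second probe set, from 5462 to 15482 and 13496, gave 1.36 (SE 0.17). Stat5a, which carries signals of GM-CSF and other growth factors, rose from 5256 to 11623 and 11534 (1.10, SE 0.17, adjusted p = 0.000854), and its second probe set gave 0.87 (SE 0.19). Both poly IC arrays were above naive for each gene on each probe set. The Stat5a probe sets come from the same source sequence and may also hold Stat5b signal, so they are not separate readings.

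Stat6, the STAT of interleukin-4 and interleukin-13 that drives alternative macrophage activation, moved the other way. It was 13401 on the naive array and 8284 and 7731 with poly IC (-0.73, SE 0.18, adjusted p = 0.0117), so the naive signal was above both poly IC arrays, as for 52.1% of all genes. The Stat6 call did not hold with median-centred arrays (-0.53, adjusted p = 0.069), without poly IC replicate 2 (-0.68, adjusted p = 0.0736) or with eBayes without the trend (adjusted p = 0.0505). B cell markers fell in the same comparison, 12 of 13 tested, with a median of -1.19, and whether they bear on the Stat6 value was not tested.

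**Figure D2:**
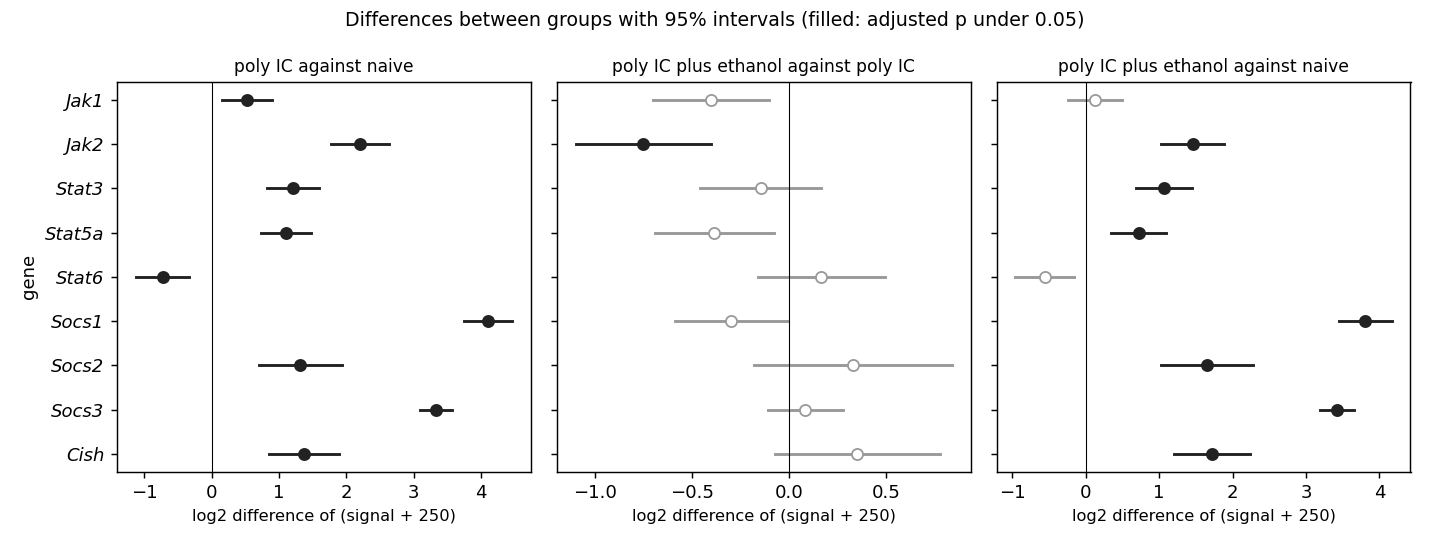
Log2 differences of (signal + 250) for the 9 genes in 3 comparisons, with 95% intervals from limma; filled points have adjusted p under 0.05. All 9 genes are called for poly IC against naive, Jak2 alone for poly IC plus ethanol against poly IC, and 7 for poly IC plus ethanol against naive; each panel has its own horizontal scale.

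Poly IC plus ethanol against poly IC asks what ethanol did to this circuit once poly IC was given. It uses the same poly IC arrays as poly IC against naive, with the opposite sign. A rise in that comparison and a fall in this one are therefore not independent. Of the 9 members, 1 was called, Jak2, which was lower with ethanol, and limma called none higher. Over all genes, 5.77% were called higher and 4.80% lower, 10.6% in either direction, so 1 of 9 is close to the background share. At an unadjusted p under 0.05, 4 members were lower and 0 higher, where 25.8% of all genes passed in either direction, and eBayes without the trend called 0 members. After centring arrays on their median the calls among all genes split into 194 higher and 286 lower, against 322 and 268 as deposited, and after quantile normalization into 264 and 263. The median difference of the 9 members was -0.15, beside 0.07 for all genes.

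Jak2 had a signal of 14387 and 15550 with poly IC against 9852 and 7838 with poly IC plus ethanol. The groups did not overlap, and the mean fell by 40.9%, from 14968 ± 823 to 8845 ± 1424. The log2 difference was -0.75 (SE 0.16, adjusted p = 0.0162) with an interval from -1.10 to -0.40, at percentile 3.89 of all genes. With ethanol both pools stayed above the naive signal of 3040. Leaving out either poly IC pool ended the call, at -0.81 (adjusted p = 0.0869) without replicate 1 and -0.70 (adjusted p = 0.162) without replicate 2, and with eBayes without the trend (adjusted p = 0.0893). Over all 15 alternatives the difference ran from -0.91 to -0.59 and the adjusted p from 7.98e-05 to 0.162.

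The summed signal of the 15 neutrophil markers, in which the brightest markers weigh most, was also highest with poly IC. Of the 13 tested, 8 had a naive signal under the filter and entered through their brighter treated arrays, so no count of calls is given for them. S100a8, a calprotectin subunit, was 564 on the naive array and 56818 and 40341 with poly IC, against 10641 and 10209 with ethanol. Prtn3, on the same list, went the other way, from 11430 on the naive array to 3916 and 3579 with poly IC. It was 6690 and 4998 with ethanol. Mpo was below the brightest unspiked control on every array. Some single markers of other cells had the same order of groups as S100a8, while others on their lists did not. Gzmb, a granzyme of NK cells and T cells, read 189 on the naive array, 5284 and 3032 in the poly IC pools, and 1060 and 1451 in the ethanol pools. Hdc, the histamine-forming enzyme on the mast cell list, read 2417, then 28453 and 25488, then 12709 and 11267. Fcgr1, an Fc receptor on the list of inflammatory macrophages, read 3323, then 26225 and 33345, then 12016 and 9109. Against this, Klrd1 on the NK cell list read 1386, then 510 and 492, then 502 and 539. Cma1 on the mast cell list read 10450, then 17658 and 4237, then 9541 and 7843. Ccr2 on the list of inflammatory macrophages read 17139, then 2061 and 970, then 2996 and 1899. The part of any of these cells in the Jak2 difference was not tested. The tested genes with profiles most like that of Jak2 over the 5 arrays were Snx10, Pla2g4a and Cxcr2, with root mean square differences of 0.06, 0.08 and 0.09 log2 units. Cxcr2, a chemokine receptor of neutrophils that is on that marker list, read 68 on the naive array (dimmer than the brightest unspiked control) against 1174 and 1392 with poly IC. The ethanol pools read 626 and 472. Its likeness to Jak2 rests on the added 250, since its naive signal was not above background.

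**Figure D3:**
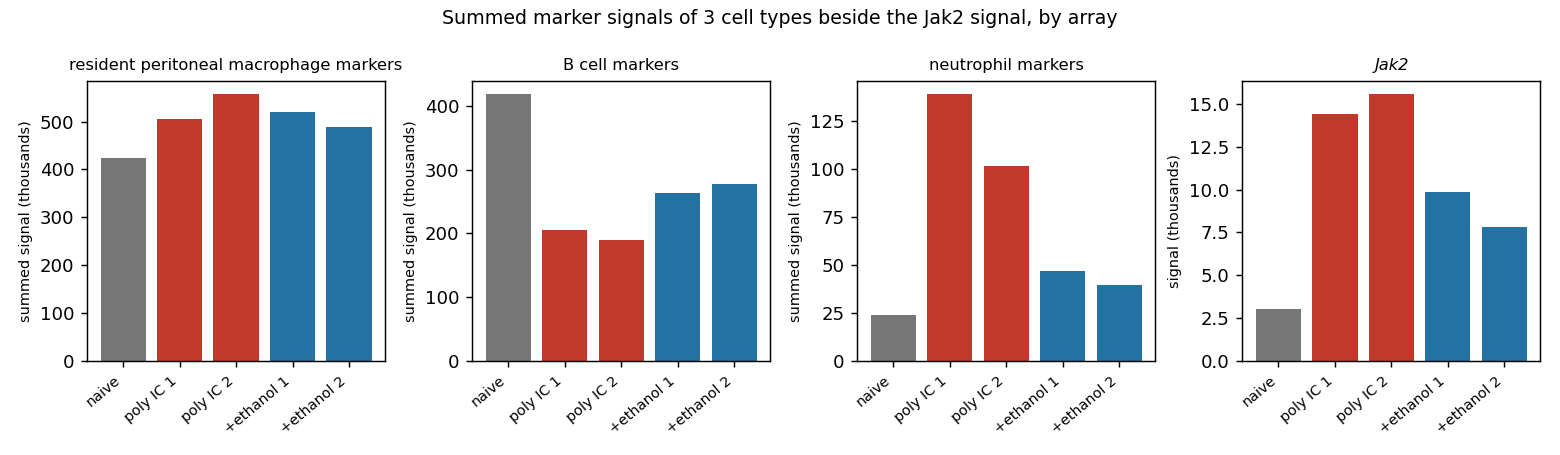
Summed signals of markers of resident peritoneal macrophages (14 genes), B cells (14) and neutrophils (15), and the Jak2 signal, on each of the 5 arrays (linear axes from 0). The neutrophil sum and Jak2 are both highest on the 2 poly IC arrays, B cell markers are highest on the naive array, and macrophage markers range from 424159 to 556779.

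Jak1 and Stat5a were lower with ethanol without passing the test. The Jak1 signals were 15765 and 13837 with poly IC against 11115 and 11110 with ethanol, so the groups did not overlap and the ethanol pools lay just above the naive signal of 10183. The log2 difference was -0.40 (SE 0.13, adjusted p = 0.0901; interval -0.70 to -0.10). Stat5a gave 11623 and 11534 with poly IC against 8579 and 9044 with ethanol, also without overlap (-0.38, SE 0.14, adjusted p = 0.108). The second Stat5a probe set differed by less, with 5629 and 5529 against 5449 and 4701 (-0.13, SE 0.16). Stat5a and Stat5b are near-identical neighbours, and the names of the Stat5a probe sets carry array-design suffixes (_i_at and _f_at) that mark sets outside the standard probe selection, so these readings may hold signal from both genes.

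Stat3 and Stat6 were not called. For Stat3 they were 17403 and 15540 with poly IC against 13726 and 16013 with ethanol, which overlap (-0.15, interval -0.46 to 0.16). On the second Stat3 probe set, 15482 and 13496 stood against 12107 and 12832, with no overlap and a difference of -0.21 (SE 0.14). Stat6 read 8284 and 7731 with poly IC against 9749 and 8314 with ethanol (0.17, interval -0.16 to 0.49), still below the naive signal of 13401. Its difference from naive with ethanol was -0.56 (SE 0.18, adjusted p = 0.0593).

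The SOCS genes and Cish kept high signals with ethanol. Socs1 was 29023 and 33188 with poly IC against 24175 and 26258 with ethanol, a difference of -0.30 that was not called (SE 0.13, adjusted p = 0.184; interval -0.59 to -0.01). Socs3 was 105563 and 106913 with poly IC against 113911 and 111070 with ethanol. Its difference was 0.08 (SE 0.09, adjusted p = 0.605), the interval ran from -0.11 to 0.27, and the sign turned with median-centred arrays (-0.0054). The second Socs3 probe set read 82637 and 85178 with ethanol, which overlaps its poly IC signals (0.02, SE 0.10).

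Cish and Socs2 had higher mean signals with ethanol, without a call. Cish gave 3700 and 3181 with poly IC against 3875 and 5087 with ethanol, which do not overlap (0.35, interval -0.07 to 0.77, adjusted p = 0.281). Socs2 read 2627 and 1955 against 3498 and 2419, which overlap (0.33, interval -0.18 to 0.84, adjusted p = 0.412). In both genes the ethanol pools were further apart than the group means. Taking all 9 genes, ethanol signals were lower without overlap for 4 (Jak1, Jak2, Stat5a and Socs1), higher without overlap for 3 (Stat6, Socs3 and Cish), and overlapped for 2. Among all genes, 21.7% were lower and 33.1% higher without overlap, 54.7% in either direction. Differences between one member and another were not tested.

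Against naive, poly IC plus ethanol left 7 of the 9 members called higher and 0 lower by limma (7 higher and 1 lower, Stat6, at an unadjusted p under 0.05), where 8.39% of all genes were called higher, 8.26% lower and 16.6% in either direction. With centred arrays the calls split into 497 higher and 270 lower, against 468 and 461 as deposited. This comparison shares its naive array with poly IC against naive, and the values are given side by side. The log2 differences with ethanol and without it were 3.81 and 4.11 for Socs1, 3.42 and 3.34 for Socs3, 1.72 and 1.37 for Cish and 1.65 and 1.32 for Socs2. For Jak2 they were 1.46 and 2.21, for Stat3 1.06 and 1.21, and for Stat5a 0.72 and 1.10. Jak1 was 0.12 (adjusted p = 0.653) with ethanol against 0.53 without it. The Stat5a call with ethanol was lost with eBayes without the trend (adjusted p = 0.0708) and in a fit of those groups alone (adjusted p = 0.051). Stat6 was called lower in 3 alternatives, without ethanol replicate 1 (-0.67), with quantile normalization (-0.66) and with a filter at the 60th percentile.

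The genes with profiles most like that of Socs1 over the 5 arrays were Gadd45b, Tnfaip2 and Marcksl1, with root mean square differences of 0.09, 0.11 and 0.16 log2 units. Gadd45b read 239 on the naive array, dimmer than the brightest unspiked control, so its place in that order rests on the added 250. Tnfaip2, a TNF-induced gene, read 2227 on the naive array. Its poly IC pools were at 41771 and 43026, and its ethanol pools at 36010 and 31740. Like Socs1, it kept most of its poly IC signal.

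Other genes of the circuit were taken from lists. Of the remaining kinases and STATs tested (Tyk2, Jak3, Stat4 and Stat5b), limma called 0 in each of the 3 comparisons. At an unadjusted p under 0.05 there was 1 lower for poly IC against naive, Stat5b, and 0 in the other comparisons. Stat5b was 1762 on the naive array, 970 and 1024 in the poly IC pools, and 1311 and 1313 in the ethanol pools. Its difference for poly IC was -0.69 (SE 0.26, adjusted p = 0.0708), and it was called lower in 4 alternatives, among them the fit without the trend.

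Of 23 matched cytokine ligands that use JAKs, 16 were too dim to be tested, and 5 of the 7 tested had a naive signal under the filter, so they were tested only through their brighter treated arrays. Of the 7, 6 were called higher with poly IC and 0 lower, a count that this filter largely fixes. Csf3, which was over the filter on the naive array too, rose from 1438 to 8173 and 7858 (2.29, SE 0.21, adjusted p = 3.21e-05). Il6, a main ligand upstream of Socs3 and Stat3, had 255 on the naive array (dimmer than the brightest unspiked control) and 18292 and 15169 with poly IC. With ethanol it was 24745 and 25951, higher without overlap (0.60, SE 0.15, adjusted p = 0.0311), a call lost without poly IC replicate 1 (0.73) or replicate 2 (0.46), with centred arrays (0.51), with no filter and with eBayes without the trend. Il15, which signals through JAK1 and JAK3, rose with poly IC from 343 to 4584 and 5092 and fell with ethanol to 2151 and 1486 (-1.32, SE 0.21, adjusted p = 0.0055). Without poly IC replicate 2 its fall no longer passed (-1.24, adjusted p = 0.0697), nor did it with eBayes without the trend.

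Beside 11.7% of all genes called higher and 20.1% lower, 8 of 19 receptor genes tested rose and 3 fell with poly IC, with a median of 0.41. With centred arrays these were 8 and 1, with quantile normalization 9 and 1, without poly IC replicate 1 they were 5 and 2 and without replicate 2 they were 6 and 0. Il4ra, the receptor chain upstream of Stat6, went from 4104 to 25403 and 23373 (2.50, SE 0.16, adjusted p = 2.33e-06), in the direction opposite to Stat6. It stayed at 27981 and 24157 with ethanol (0.09, SE 0.13). With ethanol 2 receptors were called higher and 2 lower, where 5.77% of all genes were called higher and 4.80% lower. The higher ones were Lifr (0.86, SE 0.22) and Il6ra (0.65, SE 0.18), and 0 were called higher with centred arrays, quantile normalization, no filter, eBayes without the trend or without poly IC replicate 2. The lower ones were Il15ra (-0.88, SE 0.16) and Csf3r (-0.84, SE 0.17), the latter also a neutrophil marker. Both calls were lost without poly IC replicate 2 (-0.76 and -0.84) and with eBayes without the trend, and that of Csf3r also without replicate 1 (-0.83).

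Other negative regulators split, with 3 of 11 tested called higher and 3 lower for poly IC. With no filter, centred arrays or quantile normalization these were 3 and 2, as the call of Pias3 was lost. Over all genes 11.7% were called higher and 20.1% lower. Usp18, an interferon-induced protease that also blocks the interferon receptor, rose from 660 to 50658 and 64772 (5.98, SE 0.19), and Ptpn1, a phosphatase acting on JAK2 and TYK2, from 33380 to 68848 and 69567 (1.05, SE 0.12). Ptpn2 rose from 2008 to 3857 and 3431 (0.78, SE 0.21), a call lost without poly IC replicate 1 (0.70) or replicate 2 (0.86). Ptpn6, the phosphatase SHP-1, fell from 12041 to 3507 and 3101 (-1.79, SE 0.21), and Sh2b3, an adaptor that restrains JAK2, fell from 3884 to 1256 and 1587 (-1.31, SE 0.26). Pias3 fell from 1649 to 453 and 480 (-1.41, SE 0.44), where the brightest unspiked controls were 376 and 347. The falls stood beside that of B cell markers, whose part in them was not tested. With ethanol, Usp18 was the 1 regulator of 11 called, lower at 24548 and 20263 (-1.35, SE 0.16, adjusted p = 0.0012), a share near the 10.6% of all genes. Ptprc, the phosphatase CD45, was called lower as well without ethanol replicate 1 (adjusted p = 5.29e-07) and with the replicate block (-0.59, adjusted p = 0.0122).

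**Figure D4:**
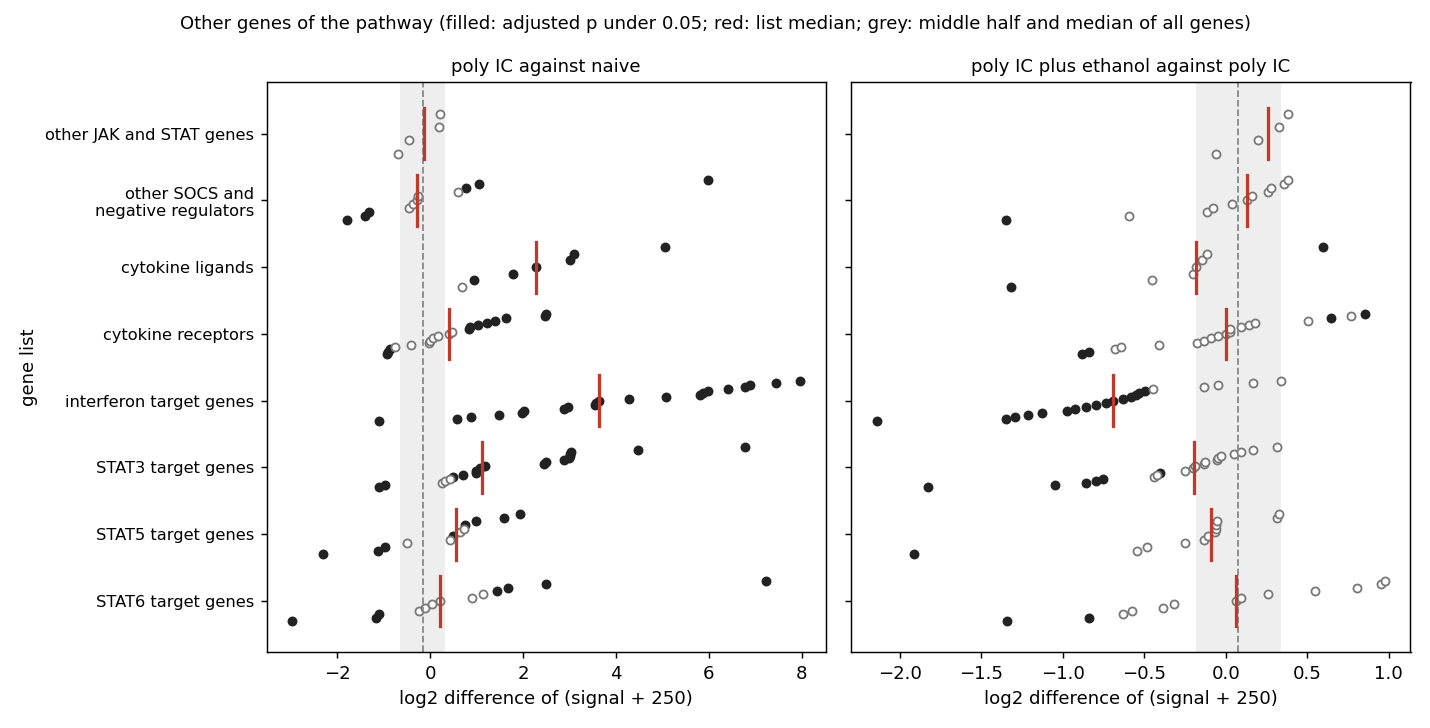
Log2 differences of (signal + 250) for tested genes of 8 lists around the JAK-STAT circuit, for poly IC against naive (left) and poly IC plus ethanol against poly IC (right, other scale). Filled points have adjusted p under 0.05, red bars are list medians, the grey band spans the interquartile range of all genes and the dashed line is their median. Of the 21 interferon target genes, 20 are called higher on the left and 16 lower on the right; both panels use the same poly IC arrays, with opposite sign.

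Target genes of the STATs were described list by list, and no difference between lists was tested. The lists share genes, so their counts are not separate readings. Pim1, Bcl2l1, Myc and Mcl1 are on both the STAT3 and STAT5 lists, and Icam1 is on the interferon and STAT3 lists. Il4ra is on the receptor, STAT3 and STAT6 lists, and Il10 on the ligand and STAT3 lists. Over all genes, 11.7% were called higher and 20.1% lower with poly IC. With ethanol 5.77% were called higher and 4.80% lower. Of 21 interferon target genes, 20 rose with poly IC and 1 fell, with a median of 3.64, and 6 of the 21 were under the filter on the naive array and tested through their treated arrays. The list was chosen with earlier results of these data known and overlaps genes already known to respond, so its counts are descriptions. With ethanol 16 of the 21 were lower and 0 higher, with a median of -0.69. The count of 16 was 5 with eBayes without the trend, 9 without poly IC replicate 1 and 6 without replicate 2. Rsad2 and Ifit3, antiviral proteins, were among the 3 genes with the strongest statistics in each comparison. Rsad2 was 279 on the naive array (dimmer than the brightest unspiked control), 59606 and 64477 in the poly IC pools, and 26758 and 23527 in the ethanol pools (-1.30, SE 0.13, adjusted p = 0.000537). Usp18 is on this list as well as among the regulators. Of 20 STAT3 targets, 3 of them under the filter on the naive array, 15 rose and 2 fell with poly IC (median 1.13). With ethanol 6 were lower and 0 higher (median -0.20). At an unadjusted p under 0.05 there were 8 lower and 1 higher, where 25.8% of all genes passed in either direction. Lcn2, 1 of the 6, is also a neutrophil marker, and its call was lost with the mean of probe sets per gene (-0.34, adjusted p = 0.245). The 6 became 1 with eBayes without the trend and 3 without either poly IC array. Il1rn, the interleukin-1 receptor antagonist, fell most, from 75346 and 82394 to 23939 and 20300 (-1.83, SE 0.13, adjusted p = 0.000205), while Bcl3 (-0.13, SE 0.14) and Nfil3 (-0.04, SE 0.17) were not called.

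Beside 11.7% of all genes called higher and 20.1% lower, 5 of 12 STAT5 targets rose and 3 fell with poly IC (median 0.57). With ethanol 1 was lower, Id1, at 571 and 393 against 2206 and 2809 (-1.92, SE 0.24, adjusted p = 0.00182). Whether STAT5 had a part in that fall was not tested. Over all genes 10.6% were called in either direction with ethanol. The 5 rises became 3 with eBayes without the trend or without poly IC replicate 2. Of 13 STAT6 targets, 4 of them under the filter on the naive array, 4 rose and 3 fell with poly IC (median 0.21; 3 and 1 with a filter at the 60th percentile, which tests fewer genes), and 2 were lower with ethanol (median 0.06, turning to -0.03 with centred arrays and also below 0 in other alternatives), where 4.80% of all genes were called lower. The 2, Ccl7 and Klf4, became 1 without poly IC replicate 2, with no filter and with eBayes without the trend, and 3 without ethanol replicate 1. The strongest statistic was that of Ccl7, a monocyte chemokine that interferon and NF-kB signalling also induce, which was 169 on the naive array (dimmer than the brightest unspiked control) and 61160 and 65385 with poly IC. It fell to 26887 and 22821 with ethanol (-1.34, SE 0.13). Chil3, Fcer2a and Alox15, counted among the STAT6 targets, are also on the marker lists of neutrophils, B cells and resident macrophages. Arg1, the arginase of alternative activation, went from 2022 to 754 and 880 (-1.09, SE 0.30, adjusted p = 0.0187), a call lost with centred arrays (-0.90), with quantile normalization (-0.89), with no filter and without poly IC replicate 1 (-1.01).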

How the data were processed

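The deposited values were intensities, 1 Microarray Suite 5.0 signal per probe set and array, which per the labels the authors had scaled globally to a target of 2500. Such scaling hides a broad change in RNA content. Detection calls were not used here. Of 12488 probe sets, 66 were controls, 10833 had 1 gene symbol, 396 several and 1193 none listed. Symbols were updated by Entrez ID through RefSeq (GRCm38.p6), where 10817 were found. Probe sets with 1 symbol and a mean signal over the 5 arrays of at least 513 (40th percentile) were kept, and each gene was represented by its brightest one, giving 5581 genes. Log2(signal + 250) entered a linear model (limma 3.58.1, R 4.3.3; a mean per group, all 5 arrays, eBayes with trend), two-sided, with Benjamini-Hochberg adjustment over all genes. The fit was tested on data simulated with 1 spread for all genes and changes only for ethanol against poly IC. It did not check comparisons with naive or a spread that changes with brightness. Second probe sets were read from a fit of all 6675 probe sets kept. The brightest of 19 unspiked control probe sets lay between 299.6 and 443.8 by array. The members and lists were chosen with earlier results of these data known, and the interferon target list overlaps genes already known to respond. All member genes were named. From each list the rule named the 3 genes with the largest moderated statistics in either comparison, and the part printed was picked after values were seen. Some genes of the pathway lists were named because they are also cell type markers or are on several lists. The others printed outside that rule, which were Sh2b3, Ptpn2, Pias3, Bcl3, Nfil3, Arg1 and Il6ra, were chosen after their values were seen. Cell type markers printed singly, other than Csf3r and Cxcr2, followed no rule and were picked with values known. Plots used matplotlib 3.10.9 (Python 3.11.15).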

Additional observations from a re-analysis of the deposited data

How the results depend on the processing

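Every member difference kept its sign in all alternatives, except Socs3 for ethanol against poly IC, which was -0.0054 with arrays centred on their median. For poly IC against naive the count of genes called was 1775, and 1158 to 2367 with 1 array left out (1158 without poly IC replicate 2). Member calls were then 7 to 9 of 9. For ethanol against poly IC the count was 590, 324 with no filter, 86 with eBayes without the trend, and 139 to 1076 with 1 array left out. The 1 member call became 0 with eBayes without the trend and was 0 to 1 with 1 array left out. For ethanol against naive the count was 929, 579 with eBayes without the trend, and 720 to 1520 with 1 array left out, with 7 to 8 members called. Pool numbers 1 and 2 recur in both treated groups, and deviations of same-numbered pools correlated at 0.05 over 5581 genes. With 2 pools a group this value cannot decide whether same-numbered pools were paired. With the replicate block over the 4 treated arrays, 778 genes and 1 member were called. No such fit can include the naive array, which has no number. A leave-one-out fit can leave a group with 1 array, assumed to vary like the others. The number of arrays, 2 pools a group with 2 residual degrees of freedom, limits the precision.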
